A study of Mus musculus with 6 samples.

Results

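The immediate early and AP-1 genes described here are 10 transcription factor and early response genes, Fos, Fosb, Fosl2, Jun, Junb, Jund, Egr1, Egr2, Nr4a1 and Ier2. They were chosen by symbol, as every probe set whose annotation names exactly 1 gene and that gene is among the 10, which gave 14 of 45141 probe sets on the array and 10 of 17097 genes. Fosl2, Jun, Jund and Egr2 have 2 probe sets each and the other genes have 1. Values came from blood effector memory T cells (CD3+ CD62L- CD44high) of 3 female C57BL/6 mice, A, C and D, aged 6 to 8 weeks. Each mouse gave a CD11c+ and a CD11c- sample of 300 sorted cells, and each sample was hybridised to its own Affymetrix array. All mice, and so both fractions, had received 3 mg of Depo-Provera, a progestin, 5 days earlier per the sample labels, and no untreated mice were arrayed. Each mouse's blood sample was sorted into both fractions. In sorted pools of this kind, more cells that carry a transcript and more transcript per cell cannot be told apart.

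Immediate early genes are transcribed within minutes of a signal without new protein synthesis, and their messenger RNAs decay quickly. In T cells they follow engagement of the antigen receptor, cytokines or cell stress, and they are also known to be switched on while cells are handled and sorted. FOS and JUN proteins pair through leucine zippers to form AP-1, which binds DNA. Fos, Fosb and Fosl2 encode partners from the FOS side, and Jun, Junb and Jund those from the JUN side. Egr1 and Egr2 encode zinc finger factors, Nr4a1 encodes the nuclear receptor Nur77, and Ier2 encodes a small nuclear protein of the early response.

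All 14 probe sets had a higher log2 signal in the CD11c+ than in the CD11c- array in 3 of 3 mice, which was so for 11.3% of all probe sets. Fos, Fosb and Jun rose, Jun by 1 of its 2 probe sets, at an adjusted p under 0.05 in limma, fitted on the pairs and adjusted over all probe sets. These were 3 of the 14 probe sets, against 0.957% of all probe sets that were called higher, and 0 of the 14 were lower, against 0.168%. Egr1 had the largest log2 difference of the 14, 4.94, but did not pass (adjusted p = 0.0534). At an unadjusted p under 0.05, 12 of the 14 were higher, against 6.28% of all probe sets. Groups did not overlap for 13 of the 14, with every CD11c+ value above every CD11c- value, against 6.4% of all probe sets. The exception was Junb. The median log2 difference was 1.69 over the 14 probe sets and -0.0889 over all probe sets, and the members ran from 0.30 for Jund to 4.94 for Egr1. Without mouse A 0 of the 14 passed, as did 0 of all 45141 probe sets, while 10 of the 14 were higher at an unadjusted p under 0.05, against 6.19% of all probe sets in that fit.

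The sort was on CD3, and signal from markers of some other blood cells was nevertheless higher in the CD11c+ fraction. Itgax, which encodes CD11c, averaged 4.60 ± 1.05 (SD, n = 3 mice) on the log2 scale without and 8.97 ± 0.074 with surface CD11c (adjusted p = 0.0387 in limma). Cd3e, a chain of the T cell receptor complex, was bright in both, with a log2 difference of -0.49 (adjusted p = 0.205). The mean log2 signal of 4 CD3 chain genes lay between 10.7 and 10.9 on the CD11c- arrays and between 9.83 and 10.2 on the CD11c+ arrays. That of 10 monocyte and macrophage markers lay between 5.15 and 5.27 on the CD11c- and between 7.85 and 8.4 on the CD11c+ arrays, with 5 of 10 called higher and 8 of 10 above background in CD11c+ cells. That of 7 basophil and mast cell markers lay between 4.04 and 4.15 on the CD11c- and between 7.93 and 8.71 on the CD11c+ arrays, with 6 of 7 called higher and 0 of 7 above background in CD11c- cells. Among 7 markers of neutrophils, Csf3r was called higher, by 2.36 (adjusted p = 0.03), and Cxcr2 differed by 3.56 (0.0595), both above background in CD11c+ cells alone and higher in 3 of 3 mice. The other 5, S100a8 and S100a9 among them, were not above background in either fraction. Among those of dendritic cells 1 of 4 was called higher, of B cells 1 of 4, of NK cells 2 of 5 (1 of 5 lower), of platelets 1 of 4 and of red cells 0 of 2. The part of these cells in the differences given here was not tested. Background is a log2 signal of 5.98, the level that 95% of 35 genes typical of other tissues stayed under, and signals are not compared between probe sets because each binds with its own strength. Of the 11958 probe sets whose mean over all arrays was above background, 2.21% were called higher and 18.5% were higher in 3 of 3 mice. These shares are larger than the 0.957% and 11.3% of all probe sets given above for the members.

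**Figure D1:**
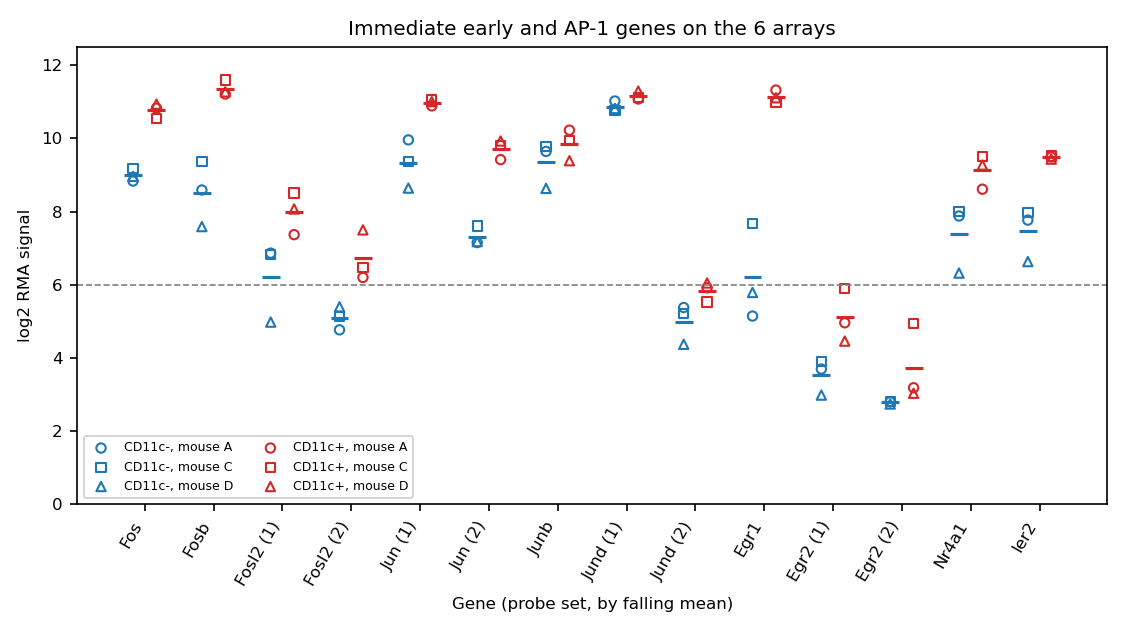
Log2 RMA signal (vertical axis) of the 14 probe sets of the 10 genes (horizontal axis, numbered by falling mean where a gene has 2) on each of the 6 arrays. Blue is CD11c-, red is CD11c+, marker shape is the mouse, short bars are means of 3 mice and the dashed line is the background level of 5.98. The red markers lie above all blue ones for every probe set except that of Junb.

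On the FOS side, Fos and Fosb rose in the CD11c+ fraction. Fos (probe set 1423100_PM_at), the founding member of the family, had log2 signals of 8.83, 9.17 and 8.96 in the CD11c- cells of mice A, C and D and of 10.8, 10.6 and 10.9 in their CD11c+ cells. The groups lay well apart and the arrays of each group close together, with SDs of 0.169 and 0.198. The log2 difference was 1.78 (standard error 0.182, 95% interval 1.30 to 2.27, adjusted p = 0.0402), a fold of 3.44. Fosb (1422134_PM_at), which encodes a close relative of FOS, had log2 signals of 8.59, 9.37 and 7.59 in CD11c- and of 11.2, 11.6 and 11.3 in CD11c+ cells of mice A, C and D. The CD11c- arrays were spread out (SD 0.893), with mouse D lowest, whereas the CD11c+ arrays were close together (SD 0.206). The log2 difference of Fosb was 2.85 (standard error 0.317, adjusted p = 0.049), a fold of 7.19. The call of Fos was lost when any mouse was left out (adjusted p = 0.215 without A, 0.0799 without C and 0.0889 without D). It was also lost under loess scaling (0.0561) and under median centring (0.058). The call of Fosb was lost when mouse A (adjusted p = 0.24) or mouse C (0.0777) was left out. It was also lost under loess scaling (0.0767) and under median centring (0.0653).

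Fosl2, which encodes the FOS relative FRA-2, did not pass by either probe set. For 1422931_PM_at the log2 signals were 6.86, 6.82 and 4.98 in CD11c- and 7.37, 8.50 and 8.07 in CD11c+ cells of mice A, C and D. The difference went from 0.51 in mouse A to 3.09 in mouse D, and the CD11c- array of mouse D was below background. The mean log2 difference was 1.76 with a 95% interval from 0.38 to 3.15 (adjusted p = 0.264), and it was 1.10 without mouse D. The other probe set, 1437247_PM_at, was below background on all CD11c- arrays and above it on all CD11c+ arrays, with a steadier log2 difference of 1.63 (standard error 0.202, adjusted p = 0.0584) that passed with dim probe sets filtered out (0.0368). Taken against the background level its CD11c+ mean was at least 1.67-fold higher.

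On the JUN side, Jun differed most, and Junb and Jund had the smallest differences of the 10 genes. Jun encodes the main partner of FOS. Its probe set 1448694_PM_at had log2 signals of 7.15, 7.60 and 7.18 in CD11c- and of 9.42, 9.80 and 9.93 in CD11c+ cells of mice A, C and D. The arrays of each group were close together (SD 0.253 and 0.265). The log2 difference was 2.41 (standard error 0.17, 95% interval 1.95 to 2.86, adjusted p = 0.0177), a fold of 5.30. Its call held under loess scaling (adjusted p = 0.0304), under median centring (0.022) and when mouse D was left out (0.0297). It was lost when mouse A (adjusted p = 0.157) or mouse C (0.0668) was left out. The other Jun probe set, 1417409_PM_at, had 9.96, 9.38 and 8.64 in CD11c- and 10.9, 11.1 and 11.0 in CD11c+ cells. Here the CD11c- arrays were spread over more than a log2 unit, and the difference of 1.66 (standard error 0.304) did not pass (adjusted p = 0.12) except with a trended variance (0.042). Both probe sets were higher in 3 of 3 mice, so they disagreed on the call and not on the direction.

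Junb encodes a JUN protein that is known to be a weaker activator of transcription than JUN. Its log2 signals were 9.64, 9.79 and 8.63 in CD11c- and 10.2, 9.95 and 9.39 in CD11c+ cells of mice A, C and D. The CD11c+ value of mouse D lay below 2 of the CD11c- values, so the groups overlapped, while each mouse's own pair had the CD11c+ value higher. The log2 difference was 0.50 with an interval from 0.0444 to 0.957 (adjusted p = 0.33). Jund, which resting cells are known to express steadily, had 11.0, 10.8 and 10.8 in CD11c- and 11.1, 11.1 and 11.3 in CD11c+ cells by 1449117_PM_at. Its log2 difference of 0.30 (interval -0.102 to 0.696, adjusted p = 0.513) was not detectable beyond the error. The other Jund probe set, 1440265_PM_at, averaged below background in both fractions, with a log2 difference of 0.84 (adjusted p = 0.361) that was 0.43 without mouse D. By mouse that difference was 0.54, 0.32 and 1.68 in A, C and D.

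**Figure D2:**
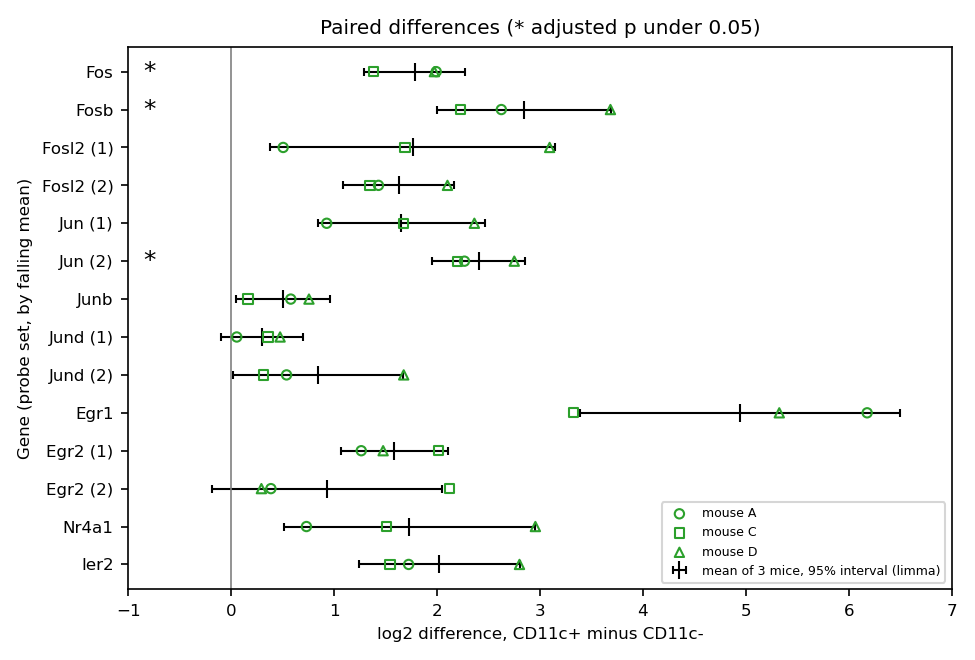
Log2 difference between the CD11c+ and CD11c- arrays (horizontal axis) for each of the 14 probe sets (vertical axis). Green markers are the 3 mice, black ticks their mean and black bars the 95% interval from limma, and asterisks mark the 3 probe sets with an adjusted p under 0.05. Each of the green markers lies above 0, from 0.0555 for Jund in mouse A to 6.18 for Egr1 in mouse A.

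Egr1, a zinc finger factor induced through MAP kinases, had the largest difference and a wide error. Its log2 signals were 5.14, 7.67 and 5.79 in the CD11c- cells of mice A, C and D and 11.3, 11.0 and 11.1 in their CD11c+ cells. The CD11c+ arrays agreed closely (SD 0.164), and the CD11c- arrays did not (SD 1.31), with only that of mouse C above background. The log2 difference was 4.94 with a 95% interval from 3.39 to 6.5 (adjusted p = 0.0534), a fold of 30.8 that is not exact since most CD11c- values were at background. By mouse the difference was 6.18, 3.33 and 5.33 in A, C and D. Leaving out mouse C brought Egr1 past the threshold (adjusted p = 0.0239), as did an unpaired fit (0.0157), the mouse as a random effect (0.0117), the filter on dim probe sets (0.0211) and a trended variance (0.0137), whereas leaving out mouse A (0.227) or mouse D (0.0931) did not.

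Egr2, a relative of Egr1 known in T cells as a restraint on activation, was not above background in either fraction by either probe set. Its 2 probe sets had log2 differences of 1.59 (adjusted p = 0.0572) and 0.93 (adjusted p = 0.458), and the CD11c+ array of mouse C was the highest in both, at 5.90 and 4.93. Without mouse C the differences were 1.37 and 0.34. With a trended variance the first of them passed (adjusted p = 0.0266).

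Nr4a1, a reporter of recent antigen receptor signalling, had log2 signals of 7.88, 8.00 and 6.32 in CD11c- and of 8.61, 9.51 and 9.27 in CD11c+ cells of mice A, C and D. The groups did not overlap, yet the difference ran from 0.73 in mouse A to 2.96 in mouse D. The mean log2 difference of 1.73 had a 95% interval from 0.52 to 2.95 (adjusted p = 0.219) and was 1.12 without mouse D. Ier2 had 7.77, 7.97 and 6.63 in CD11c- and 9.49, 9.52 and 9.43 in CD11c+ cells. Its CD11c+ arrays were the tightest of the 14 probe sets (SD 0.0425). The log2 difference of Ier2 was 2.02 (interval 1.24 to 2.80, adjusted p = 0.0783), a fold of 4.07. Ier2 came past the threshold in an unpaired fit (adjusted p = 0.0485), with the mouse as a random effect (0.0343), with dim probe sets filtered out (0.0425) and with a trended variance (0.0311).

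The SD was larger in CD11c- than in CD11c+ cells for 9 of the 14 probe sets, or 64.3%, close to the 58.2% of all probe sets. The CD11c- array of mouse D was the lowest of its group for 9 of the 14, against 41.3% of all probe sets, and below the group mean for all but 1. Mouse D had the largest paired difference for 10 of the 14, against 40.6% of all probe sets. On average over the 14, the CD11c- array of mouse D lay 0.5 below its group mean (-0.5), that of mouse C 0.396 above it and that of mouse A 0.104 above it, on the log2 scale. The 14 probe sets come from the same arrays, so these counts describe 3 arrays and not 14 independent results.

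The stretch before the start of transcription is shown for Fos, Fosb and Jun, which rose, and for Nr4a1, whose stretch holds the most matches. RefSeq (GRCm38.p6) gave such a stretch for 8 of the 10 genes, all but Egr1 and Ier2. The letters searched on both strands were TGACG, the core of the site for CREB and ATF proteins, TGACGTCA, the full site, which contains that core, TGACATCA, a site bound by JUN with ATF proteins, TGACTCA, the AP-1 site, GCGTGGGCG, an EGR site, and the CArG box of the serum response factor. Each line gives 250 bases 5′ to 3′ on the strand of the gene, ending at the base before the start, with matches in capitals (CGTCA is TGACG on the other strand). The Fos stretch is chr12:85473640-85473889 on the plus strand, the Fosb stretch chr7:19310046-19310295 on the minus strand, the Jun stretch chr4:95052223-95052472 on the minus strand and the Nr4a1 stretch chr15:101266596-101266845 on the plus strand.
Fos: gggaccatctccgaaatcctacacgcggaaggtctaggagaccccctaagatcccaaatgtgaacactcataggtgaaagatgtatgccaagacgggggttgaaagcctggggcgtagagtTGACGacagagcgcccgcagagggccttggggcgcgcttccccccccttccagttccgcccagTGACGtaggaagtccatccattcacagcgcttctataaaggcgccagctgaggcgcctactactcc
Fosb: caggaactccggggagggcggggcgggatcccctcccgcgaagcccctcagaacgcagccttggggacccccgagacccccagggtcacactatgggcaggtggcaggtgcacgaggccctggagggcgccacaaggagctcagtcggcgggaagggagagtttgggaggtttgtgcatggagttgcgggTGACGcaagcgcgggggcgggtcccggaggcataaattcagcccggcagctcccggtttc
Jun: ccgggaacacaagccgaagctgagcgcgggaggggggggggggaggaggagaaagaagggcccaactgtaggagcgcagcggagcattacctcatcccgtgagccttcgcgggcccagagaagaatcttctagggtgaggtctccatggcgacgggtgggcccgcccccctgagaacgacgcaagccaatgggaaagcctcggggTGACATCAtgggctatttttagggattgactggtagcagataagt
Nr4a1: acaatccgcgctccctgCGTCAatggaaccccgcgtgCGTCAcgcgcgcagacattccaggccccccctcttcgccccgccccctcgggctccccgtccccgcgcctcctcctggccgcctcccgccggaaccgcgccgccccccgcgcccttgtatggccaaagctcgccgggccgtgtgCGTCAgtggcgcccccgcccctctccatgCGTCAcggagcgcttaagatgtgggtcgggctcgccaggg

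The core TGACG stood 66 and 129 bases before the start of Fos, 60 bases before that of Fosb and 106 bases before that of Junb. It occurred at 4 places in the Nr4a1 stretch, the nearest 40 bases before the start. Counting every start listed for a gene, 5 of the 8 genes held TGACG, the fifth being Egr2 with several starts. The share was 19.8% of all 27025 genes with a stretch on the chromosomes searched. TGACATCA stood 45 bases before the start of Jun, 1 of 8 genes against 3.41%, and a CArG box was found for Egr2, 1 of 8 against 1.62%. The full site TGACGTCA (1.77% of all genes), the AP-1 site (5.16%) and the EGR site (0.622%) were in none of the 8. Fosl2 and Jund had none of the 6 motifs, and of these Fosl2 had a log2 difference of 1.76 and Jund one of 0.30. Matches are letters in a short window, and their use in these cells was not measured.

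Further genes of the same response were described with 1 probe set a gene, the one with the highest mean, of which 1.4% of 17097 genes were called higher and 0.222% lower. By that choice 2 of the 10 members, Fos and Fosb, were called higher. Of 8 other AP-1 and BATF family partners, 1 was higher, 0 lower and 7 did not pass, with a median log2 difference of 0.19. Atf3, a stress-induced partner of JUN, had log2 signals of 5.74, 5.75 and 3.83 in CD11c- and 9.72, 9.47 and 8.84 in CD11c+ cells of mice A, C and D. No CD11c- value was above background and every CD11c+ value was far above it. Atf3 rose by 4.24 on the log2 scale (adjusted p = 0.0165), and against the background level its CD11c+ mean was at least 10.3-fold higher. Fosl1, which encodes FRA-1, had a log2 difference of 1.44 (adjusted p = 0.16) and Batf3, a factor of dendritic cells and memory T cells, 1.10 (adjusted p = 0.12). The CD11c- means of Fosl1 and Batf3 were not above background. Against that level their CD11c+ means were at least 1.23-fold and 1.31-fold higher. Of 6 EGR and NR4A relatives and NAB corepressors, 0 passed in limma (0 also at an unadjusted p under 0.05), and the median log2 difference was 0.0634. Egr3 had 0.43 (adjusted p = 0.439) and Nr4a2 had 0.38 (adjusted p = 0.554).

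Of 26 other immediate early response genes, 1 was higher, 0 lower and 25 did not pass, and before adjustment 15 were higher and 4 lower at p under 0.05, against 7.38% and 7.44% of all genes. The median log2 difference of the 26 was 0.69. Ier3, an early response gene of stress and survival, had log2 signals of 6.04, 5.28 and 4.27 in CD11c- and 10.1, 9.99 and 10.3 in CD11c+ cells of mice A, C and D. Its CD11c- mean was not above background. Ier3 rose by 4.92 on the log2 scale (adjusted p = 0.0242), and its CD11c+ mean was at least 17.7-fold above the background level. Klf4, a factor of monocyte differentiation, had a log2 difference of 2.17 (adjusted p = 0.0966) with a CD11c- mean not above background, and Rgs1, a brake on chemokine receptor signalling, had 1.75 (adjusted p = 0.0884). The 4 on the lower side, named after their values were seen, were Klf2, a factor of T cell recirculation, with -0.69 (adjusted p = 0.165), Nfkbia, the inhibitor of NF-κB, with -0.68 (0.199), Zfp36l1, a messenger RNA decay factor, with -0.66 (0.289), and Tnfaip3, a brake on NF-κB, with -0.51 (0.348). Each of the 4 was lower in 3 of 3 mice, which adds no support because they were picked by p on the same pairs.

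The kinases and factors that act before these genes had a median difference near 0. Of 11 upstream kinases and transcription factors, 0 passed in limma, and their median log2 difference was 0.0256. Before adjustment 1 of them was higher and 0 lower at p under 0.05, against 7.38% and 7.44% of all genes. Mapk14, which encodes the stress kinase p38α, had 1.10 (adjusted p = 0.0931), and Mapk9, which encodes the JUN kinase JNK2, had -0.32 (adjusted p = 0.461). Of 8 heat shock genes, which respond to protein damage, 0 passed in limma. Before adjustment 3 of the 8 were higher and 0 lower at p under 0.05, against the same 7.38% and 7.44% of all genes. The median log2 difference of the heat shock genes was 0.37, against -0.0864 over all genes. Hsph1 had 0.80 (adjusted p = 0.121) and Dnajb1 had 0.54 (adjusted p = 0.209).

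**Figure D3:**
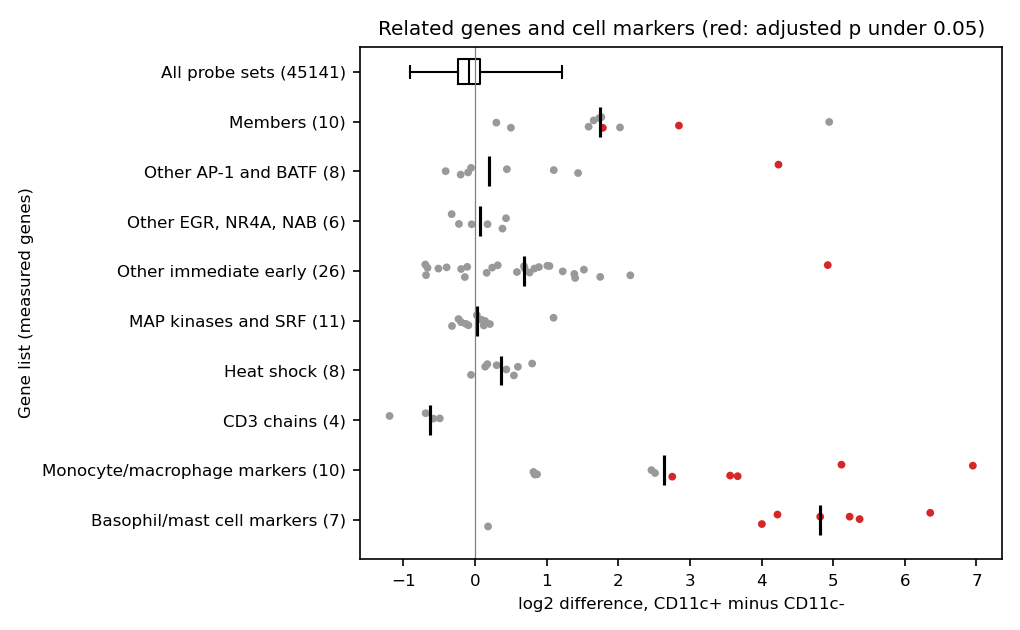
Log2 difference between CD11c+ and CD11c- cells (horizontal axis) of the genes of each list (vertical axis, with its count of measured genes), 1 dot a gene, red where the adjusted p was under 0.05, with black ticks for medians. The box gives all 45141 probe sets with quartiles and whiskers that hold the middle 95%. The members' median of 1.75 and the medians of the monocyte and basophil markers, 2.63 and 4.82, lie to the right of the box, and that of the CD3 chains, -0.64, to its left. The medians of the other immediate early genes, 0.69, and of the heat shock genes, 0.37, also lie to the right of the box.

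The genes whose signals ran most like those of Fos over the 6 arrays, among 5882 genes whose mean over all arrays was above background, were Pik3cg (Pearson r = 0.992), Rassf4 (0.992), Ifitm2 (0.991), Mpeg1 (0.991) and Cd8b1 (0.991). Those most like Nr4a1 were Ehbp1l1 (0.998), Fosl2 (0.996), Gabbr1 (0.995), Plpp2 (0.992) and Aldoa (0.99). All of these r share the same 6 arrays and the same split into fractions, and they are given as a description. Of the genes named, Rassf4, Ifitm2, Mpeg1 and Plpp2 had CD11c- means not above background and entered through their CD11c+ values, so their r largely restates the split.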

How the data were processed

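RNA of 300 sorted cells a sample was amplified and hybridised to 6 single-colour Affymetrix mouse arrays. The authors turned scanned intensities into RMA values, deposited on the log2 scale. The submitters' processing notes name RMA and limma, with versions not given in the sources used here. This normalization levels the arrays (medians 4.4 to 4.54), so a change in total RNA per cell cannot be seen, and dim probe sets may vary more after amplification from few cells.

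All 45141 probe sets were tested with limma 3.58.1 in R 4.3.3 in a paired two-sided fit (a block for each mouse), adjusted by Benjamini-Hochberg, at a threshold of 0.05. Each pair comes from 1 mouse per the labels. Paired arrays' deviations from group means correlated at 0.122, 0.0758 and 0.109, those of different mice at -0.086 to -0.0217. Deviations cancel within each fraction, so part of that contrast is built in. With 2 residual degrees of freedom a probe set, the number of arrays limits the precision. Of the probe sets, 28898 carry 1 gene symbol, 551 carry several and 15692 carry none.

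The members, gene lists and tests were chosen with earlier results of these data known. Named genes are all members, list genes past the threshold (up to 3 a direction), the 2 largest others above background, and the 5 genes most like Fos and Nr4a1. Alternatives were the block, normalization, filter, variance trend, threshold, summary of probe sets, background percentile and leaving out each mouse. On simulated data for CD11c+ against CD11c- over 45141 probe sets, the test recovered 0% of 50 log2 changes of 1, 40% of 50 of 2, 72% of 50 of 4 and 96% of 50 of 6, with 2 false calls among 106. The simulated noise was normal, with each probe set's estimated residual SD taken as true. Changes were added to probe sets drawn at random from all, dim ones included, so these shares are not specific to the members.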

Additional observations from a re-analysis of the deposited data

How the results depend on the processing

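Each of the 14 probe sets stayed higher in CD11c+ cells on average under every setting that tested it, and the calls moved. Against 3 probe sets and 2 member genes called higher, there were 5 and 4 without the replicate block and with it as a random effect, 1 and 0 after cyclic loess and with median centring, 6 and 4 when the dimmer part of the array was filtered out (12 of the 14 and 22570 of all probe sets tested, with 2.69% of these called higher), 7 and 6 with a trended variance, and 7 and 5 at an adjusted p threshold of 0.1. With probe sets of a gene averaged, 5 member genes were called, and the share of all genes called in that fit is not given here. Leaving out 1 mouse gave 0 to 2 probe sets and 0 to 1 genes. The median log2 difference ran from 1.35 without mouse D to 1.88 without mouse A.

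Over all probe sets, 432 were higher and 76 lower, against 684 and 211 without the replicate block and 812 and 316 with a random replicate block. There were 684 and 207 with a trended variance, 845 and 380 at a threshold of 0.1 and 607 and 140 with the filter. Cyclic loess gave 343 higher and 41 lower, and median centring gave 349 and 51. Leaving out a mouse gave 0 to 348 higher and 0 to 44 lower. The related lists gave 2 genes higher, 5 without the block or with a trended variance, 6 with the random block or at 0.1 and 0 to 2 without 1 mouse. By gene means they gave 8, again without the share of all genes. The number of arrays limits these counts, and the cause of the shifts was not tested. Of the 14 probe sets 11 were above background in CD11c+ cells, and 12 with the 90th percentile as background.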
